A study of Mus musculus with 8 samples.

Results

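The 26S proteasome was examined gene by gene in keratinocytes (epidermal epithelial cells) cultured from mouse skin, through 31 genes for its constitutive subunits among the 19457 gene rows of the table. The members were listed by gene symbol, with earlier results of these data known. They were 14 genes of the 20S core (Psma1 to Psma7 and Psmb1 to Psmb7) and 17 genes of the 19S regulator (Psmc1 to Psmc6 and 11 Psmd genes), without the immunoproteasome genes. RNA came from 4 wild-type (WT) libraries and 4 libraries of the genotype labelled HdR (HOIL1 ΔRING1), in which HOIL-1L lacks RING1, all from primary cultures taken before confluence. No treatment, age, strain or sex is given in the labels, nor whether the libraries are separate animals or cultures, so p-values reflect the spread among libraries alone, which may be technical. The comparison of HdR with WT bears on what linear ubiquitination does in keratinocytes, since HOIL-1L, the product of Rbck1, belongs to LUBAC, the ligase complex that makes linear ubiquitin chains.

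The proteasome is the protease that degrades most proteins tagged with ubiquitin. Its 20S core is a barrel of outer alpha rings, which gate the entrance, and inner beta rings, which hold the catalytic sites in the subunits beta1 (Psmb6), beta2 (Psmb7) and beta5 (Psmb5). The 19S regulator caps the barrel: a base with a ring of ATPases unfolds the substrate and threads it in, and a lid with the deubiquitinase encoded by Psmd14 removes the ubiquitin chain. When proteasome activity is short, the transcription factor NRF1, encoded by Nfe2l1, is known to raise the subunit genes together through antioxidant response elements in their promoters.

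Levels are aligned bases of a gene per megabase of the library's scaled total (written per Mb), a scale for setting libraries side by side for 1 gene at a time. Libraries held 2.31 to 5.43 Gb of aligned bases, and every HdR library (2.31 to 4.31 Gb) was shallower than every WT library (4.78 to 5.43 Gb), so depth and genotype cannot be told apart. Rbck1 was at 84.3, 89.0, 91.4 and 84.8 per Mb in WT and at 43.6, 41.1, 45.3 and 44.8 in HdR (log2 fold change -0.98 ± 0.047, SE, limma adjusted p = 7.03e-11). The groups are far apart, but coverage summed over the gene cannot show the deleted part. All 8 keratinocyte markers were present, with a summed level of 39549 to 42658 per Mb in WT and 42540 to 43944 in HdR. Of these markers 4 were called higher (Krt5 at a log2 fold change of 0.11, Col17a1 at 0.14, Itga6 at 0.28 and Itgb4 at 0.43) and 0 lower, also 0 lower at an unadjusted p under 0.05 and with limma-voom, with a median of 0.116. Markers of melanocytes summed to 51.8 to 59.9 per Mb in WT and 27.2 to 29.5 in HdR, and 6 of 7 tested were lower. Over all genes tested, 21.6% were called higher and 23.4% lower. Fibroblast, immune and endothelial markers stayed below 4 per Mb in sum in every library (highest 3.86), immune markers at most 0.316 with 1 of 4 at 0 throughout, and endothelial markers 0.268 to 0.626 in WT and 1.04 to 1.46 in HdR. In bulk RNA, fewer cells of a type and less RNA per cell cannot be told apart, and the part of depth and of the keratinocyte and melanocyte marker differences in the results below was not tested.

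The promoter stretches shown here are the 4 member windows that hold TGACNNNGC, a core of the antioxidant response element, and that of Psmd2, a base subunit gene called higher, which holds the ETS-type motif CCGGAAG. Of the 31 members, 25 had a window in the RefSeq promoter table (GRCm38.p6, 250 bases before to 50 after a gene's start), 27 windows in all. Each stretch is printed 5′ to 3′ on the gene's strand from 250 bases before the RefSeq start to the base before the first start in either annotation, with the motif in capitals (in Psmc6, Psmd12 and Psmd2 it is read on the opposite strand). Psmb5 is chr14:54618023-54618245 on the minus strand, Psmb6 chr11:70525107-70525356, Psmc6 chr14:45329574-45329787, Psmd12 chr11:107479278-107479483 and Psmd2 chr16:20651402-20651651, all on the plus strand.
Psmb5: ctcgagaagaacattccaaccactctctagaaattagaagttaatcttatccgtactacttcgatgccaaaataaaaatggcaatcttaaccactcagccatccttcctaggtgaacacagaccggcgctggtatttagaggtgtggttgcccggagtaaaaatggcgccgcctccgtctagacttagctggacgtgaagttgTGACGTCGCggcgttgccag
Psmb6: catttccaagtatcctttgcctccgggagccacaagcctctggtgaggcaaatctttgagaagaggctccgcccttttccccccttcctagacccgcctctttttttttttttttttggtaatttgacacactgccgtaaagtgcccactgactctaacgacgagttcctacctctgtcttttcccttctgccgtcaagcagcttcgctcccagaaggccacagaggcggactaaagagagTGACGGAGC
Psmc6: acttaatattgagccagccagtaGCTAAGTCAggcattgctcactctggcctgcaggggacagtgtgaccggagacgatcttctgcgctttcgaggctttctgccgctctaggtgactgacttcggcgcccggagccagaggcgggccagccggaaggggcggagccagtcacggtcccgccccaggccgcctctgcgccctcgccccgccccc
Psmd12: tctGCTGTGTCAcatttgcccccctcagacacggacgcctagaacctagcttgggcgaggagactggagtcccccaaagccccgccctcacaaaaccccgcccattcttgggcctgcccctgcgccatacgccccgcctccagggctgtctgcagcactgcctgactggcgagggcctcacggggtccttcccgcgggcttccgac
Psmd2: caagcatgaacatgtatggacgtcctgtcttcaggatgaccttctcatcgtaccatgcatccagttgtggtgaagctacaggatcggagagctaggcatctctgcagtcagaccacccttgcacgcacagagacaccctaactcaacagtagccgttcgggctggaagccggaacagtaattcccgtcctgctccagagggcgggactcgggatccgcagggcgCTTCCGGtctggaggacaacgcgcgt

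Motifs were searched on both strands of all 32851 windows of 300 bases. TGACNNNGC was in 4 of the 27 member windows (14.8%) and in 12.4% of all windows. The related spelling TGAGNNNGC was in 11 member windows (40.7%) against 17.6% of all windows. CCGGAAG, which ETS factors bind, was in 11 (40.7%) against 8.86%, and CCAAT, the NF-Y box, in 10 (37.0%) against 37.4%. A match describes these letters and is not a binding site. The 4 genes with TGACNNNGC did not share a direction in HdR: Psmb5 was at a log2 fold change of -0.16, Psmb6 at -0.01, Psmc6 at -0.09 and Psmd12 at 0.14, and of these Psmb5 and Psmd12 passed the test. Nor did the members with TGAGNNNGC: Psmb3, Psma5, Psmd12 and Psmd1 were called higher, at 0.16, 0.15, 0.14 and 0.13. Psma4, Psma7 and Psmd13 were at 0.07, 0.06 and 0.01 and did not pass. Psma6, Psmc2 and Psmc6 were at -0.00, -0.06 and -0.09 and did not pass. Members with CCGGAAG were also mixed: Psmc1, Psmd12 and Psmd2 were called higher, at 0.18, 0.14 and 0.13. Psmd4, Psmd6 and Psmd13 were at 0.10, 0.07 and 0.01 and did not pass. Psma6, Psmc2, Psmc6 and Psmd11 were at -0.00, -0.06, -0.09 and -0.02 and did not pass either.

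Constitutive subunit genes were slightly higher in HdR more often than they were lower, and the keratinocyte marker median (0.116) lay in the same direction. All 31 passed the filter on low values, and limma called 13 higher (41.9%) and 1 lower (3.23%) at adjusted p under 0.05, where 21.6% of the 11870 genes tested were called higher and 23.4% lower (45.0% in either direction). The 17 others did not pass. The median log2 fold change (HdR minus WT, on levels plus 1) was 0.070 over the members and -0.007 over all genes tested. The member median was 0.043 without WT 2. With upper-quartile scaling it was 0.106, with 16 members called higher and 1 lower, where the median of all genes was 0.027 and 26.2% of them were called higher. All changes were small: the members lay between -0.16 and 0.20, and all 31 were within 0.2 of 0, as were 61.1% of all genes tested. When limma's treat test asked for more than a fold of 1.2, it called 0 members, also 0 at an unadjusted p under 0.05, while it called 7.46% of all genes. The members were measured more precisely than most genes, with a median SE of 0.040 against 0.066 over all genes, so that smaller differences pass the test, and their median WT level was 179.0 per Mb against 29.3.

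The members' values in single libraries show the same balance. In 13 members every HdR library was above every WT library, and in 2 (Psmb5 and Psmc6) every HdR library was below, where 20.2% and 21.0% of all genes tested were separated in these directions. The 14 members called were all separated in the direction of their call. Within WT most subunits had the same extremes: WT 2 had the lowest value of the WT libraries for 25 of 31 members and WT 3 the highest for 27. The same count was not made over all genes, so this swing is not shown to be particular to the subunits. Within HdR, HdR 2 was highest for 20 and HdR 3 lowest for 16. The coefficient of variation was larger in WT for 26 of 31 members, with a median of 4.58% in WT and 2.43% in HdR. Without WT 2 the members called fell to 10 higher and 1 lower, and without WT 4 and HdR 4 they were also 10 and 1.

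**Figure D1:**
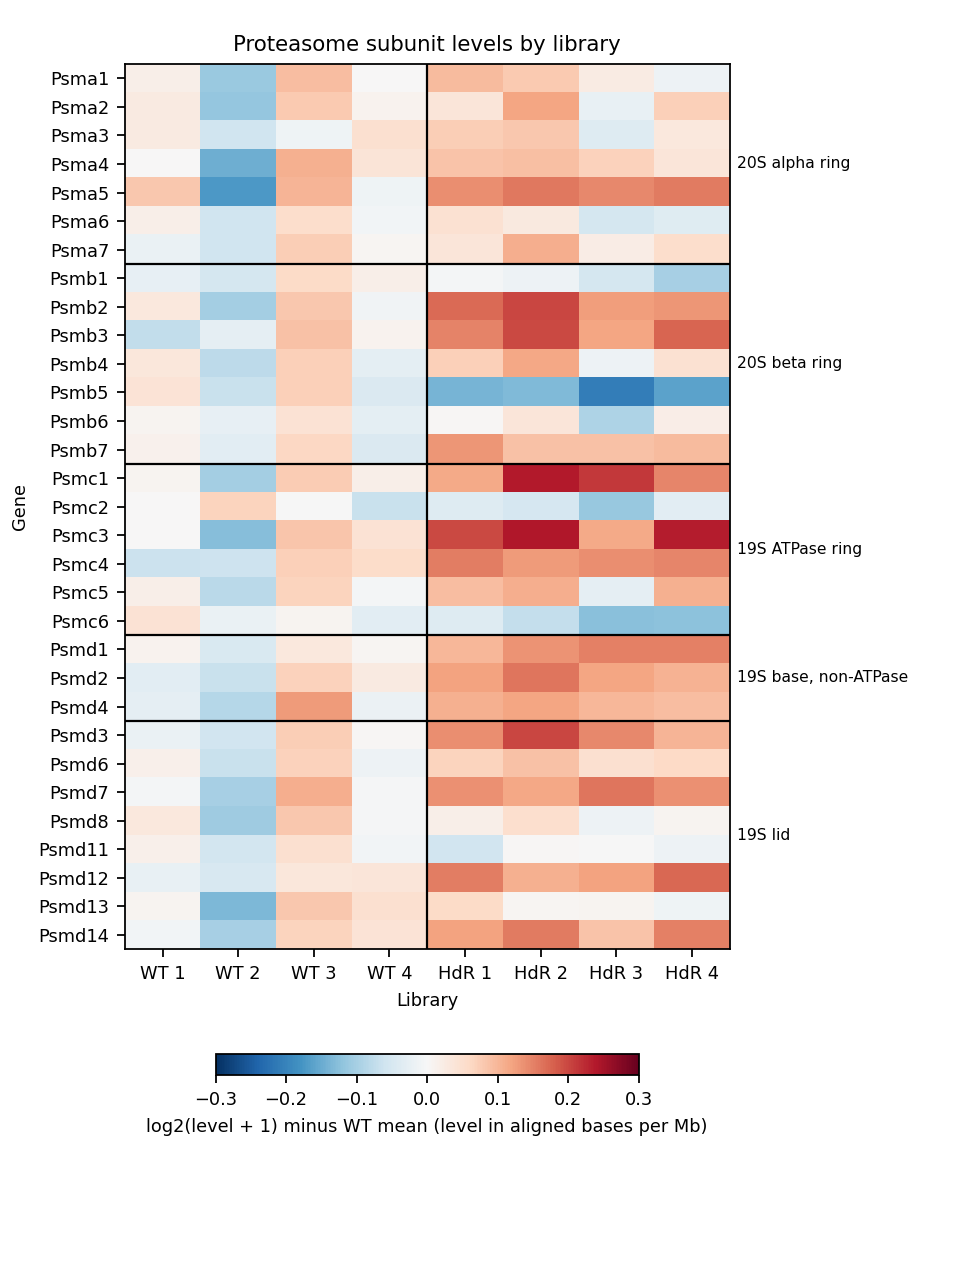
Heat map of the 31 subunit genes (rows, by complex part) in the 8 libraries (columns); colour is the log2 of the level plus 1 minus the mean of the 4 WT libraries. WT 2 is pale to dark blue and WT 3 red for most rows, the HdR columns are mostly red, and Psmb5 and Psmc6 are blue in all 4 HdR libraries.

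In the outer alpha ring, 1 of 7 genes was called higher (14.3%) and 0 lower (limma; 1 and 0 at an unadjusted p under 0.05 and with limma-voom), with a median log2 fold change of 0.050. The shares over all genes tested, 21.6% higher and 23.4% lower, are the background for this ring and for each part of the complex below. The alpha ring's share called higher was thus under the background. Psma5, a ring subunit (chromosome 3, 108256926 to 108279974), was at 108.5, 90.9, 110.1 and 101.6 per Mb in WT 1 to WT 4 and at 113.0, 114.5, 113.4 and 114.3 in HdR 1 to HdR 4. Its HdR values lay close together above all WT values, and WT 2 was far below the other WT libraries. The change was 0.15 ± 0.051 (SE, limma adjusted p = 0.0233), but 0.093 (adjusted p = 0.0756) without WT 2, and adjusted p was 0.0504, 0.0534 and 0.0524 without HdR 1, HdR 2 or HdR 4, 0.097 without WT 4 and HdR 4, and 0.0677 without the filter. Psma4 was at 146.0, 131.7, 157.2 and 150.0 in WT and at 154.8, 155.5, 153.1 and 149.6 in HdR. Its groups overlapped, with a log2 fold change of 0.07 (95% interval -0.03 to 0.17, adjusted p = 0.23). Psma1, Psma2, Psma3 and Psma7 were at 0.05, 0.05, 0.04 and 0.06, and Psma6 was at -0.00 with a 95% interval of -0.08 to 0.08.

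The beta ring held both directions. Of 7 genes 3 were called higher and 1 lower, with a median of 0.055. Psmb5 (chromosome 14, 54614119 to 54618022, minus strand) encodes beta5, the chymotrypsin-like site and the main target of proteasome inhibitor drugs. It was at 206.7, 191.8, 211.1 and 195.0 per Mb in WT and at 182.5, 183.4, 173.9 and 179.7 in HdR. Every HdR value was below every WT value, and the fall was the largest drop among the members, at a log2 change of -0.16 ± 0.039 (SE, limma adjusted p = 0.00279). Over all alternatives its log2 fold change was -0.18 to -0.12, and only the test against a fold of 1.2 lost the call.

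The other catalytic subunits did not follow it. Psmb6, which encodes beta1, the caspase-like site, was at 183.2, 179.1, 187.8 and 178.4 in WT and at 182.6, 186.7, 170.6 and 184.6 in HdR. These groups overlapped, and the log2 fold change was -0.01 (95% interval -0.09 to 0.07, limma adjusted p = 0.873). Psmb7, which encodes beta2, the trypsin-like site, was at 200.6, 194.3, 207.5 and 192.7 in WT and at 217.9, 211.2, 211.3 and 212.3 in HdR. It was higher in all 4 HdR libraries by 0.10 ± 0.035 (SE, adjusted p = 0.0269). That call was lost without WT 1 (adjusted p = 0.0516), WT 2 (0.053), WT 4 (0.0736) or HdR 1 (0.0912), without WT 4 and HdR 4 (0.119), and with the replicate number as a block (0.0657). The 95% intervals of Psmb5 (-0.24 to -0.08) and Psmb7 (0.03 to 0.18) did not overlap, and the difference between genes was not tested.

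Among the beta subunits without a catalytic site, Psmb3 was at 129.9, 134.1, 145.4 and 137.8 in WT and at 151.6, 157.0, 148.4 and 154.5 in HdR. All HdR values lay above all WT values, at a log2 change of 0.16 ± 0.040 (SE, limma adjusted p = 0.00363). Psmb2 was higher by the same amount, from 114.5 ± 6.19 to 127.6 ± 3.09 per Mb (SD, n = 4, limma adjusted p = 0.00611). Psmb4 was at 0.05 and Psmb1 at -0.04, and neither passed.

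In the ATPase ring, whose 6 subunits unfold the substrate, 3 genes were called higher and 0 lower, against 1 lower at an unadjusted p under 0.05 and 1 with limma-voom. Psmc3 (chromosome 2, 91054009 to 91066369) had the largest rise of the 31, from 194.1, 177.2, 205.5 and 199.8 in WT to 222.6, 229.0, 209.8 and 228.5 in HdR. The groups did not overlap, although HdR 3 lay close to WT 3, and the log2 fold change was 0.20 ± 0.045 (SE, limma adjusted p = 0.00188). Psmc1 was at 191.4, 177.3, 200.8 and 192.8 in WT and at 206.0, 224.7, 220.7 and 210.7 in HdR. It was higher in all 4 HdR libraries by 0.18 ± 0.042 (adjusted p = 0.00244). Psmc4 rose by 0.14, from 138.4 ± 7.15 to 152.6 ± 1.1 per Mb (SD, n = 4, limma adjusted p = 0.00782).

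Neighbours in the same hexamer went the other way or did not pass. Psmc6 was at 141.8, 135.7, 138.3 and 134.6 in WT and at 134.0, 130.8, 126.1 and 126.2 in HdR. Its groups were just separated, with HdR 1 close under WT 4, and the log2 fold change of -0.09 (95% interval -0.17 to -0.01) missed the threshold (limma adjusted p = 0.0586). It passed with limma-voom (0.0374), without HdR 1 (0.0475) and with GC and length correction (0.033). Psmc2 was at -0.06 (95% interval -0.14 to 0.02) and Psmc5 at 0.07 (-0.02 to 0.16).

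In the base outside the ATPase ring, 2 of 3 genes were called higher. Psmd1, a scaffold subunit (chromosome 1, 86064387 to 86139151), was at 248.6, 239.1, 252.4 and 247.8 in WT and at 264.5, 271.0, 274.2 and 274.2 in HdR. All 4 HdR values were above the highest WT value, a rise of 0.13 ± 0.033 (SE, limma adjusted p = 0.00358). Psmd2, which encodes a docking subunit for ubiquitin-like domains, was at 426.9, 416.3, 457.8 and 444.6 in WT and at 474.2, 487.5, 473.8 and 468.6 in HdR. It was also higher in every HdR library, by 0.13 ± 0.036 (adjusted p = 0.00851). Psmd4, which encodes a ubiquitin receptor, was at 0.10 with HdR values of 179.1 to 182.3 inside the WT range of 158.3 to 183.7 (adjusted p = 0.0531). Psmd4 passed with median-of-ratios (0.0451) and upper-quartile scaling (0.0119), library totals (0.0133), limma-voom (0.0125), GC and length correction (0.0161) and without WT 3 (0.00206).

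In the lid, 4 of 8 genes were called higher and 0 lower (0 lower also at an unadjusted p under 0.05 and with limma-voom), with a median of 0.097. Psmd3 was at 260.9, 254.2, 278.4 and 265.3 in WT and at 291.5, 304.2, 292.4 and 284.0 in HdR. The groups were separated, with a rise of 0.15 ± 0.037 (SE, limma adjusted p = 0.00382). Psmd12 was at 132.3, 129.8, 137.6 and 137.8 in WT and at 149.6, 144.8, 146.1 and 151.6 in HdR. It rose by 0.14 ± 0.037 (adjusted p = 0.00515). Psmd7 rose by 0.14, from 212.9 ± 12.7 to 234.0 ± 3.01 per Mb (SD, n = 4), and lost its call only without WT 4 and HdR 4 and against a fold of 1.2. Psmd14, the lid deubiquitinase gene, rose by 0.13, from 120.9 ± 6.08 to 132.1 ± 2.99 per Mb (SD, n = 4, limma adjusted p = 0.0176). Its call was lost without WT 2 (0.0563) or HdR 2 (0.0503). Psmd6, Psmd8, Psmd11 and Psmd13 were at 0.07, 0.02, -0.02 and 0.01 and did not pass.

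**Figure D2:**
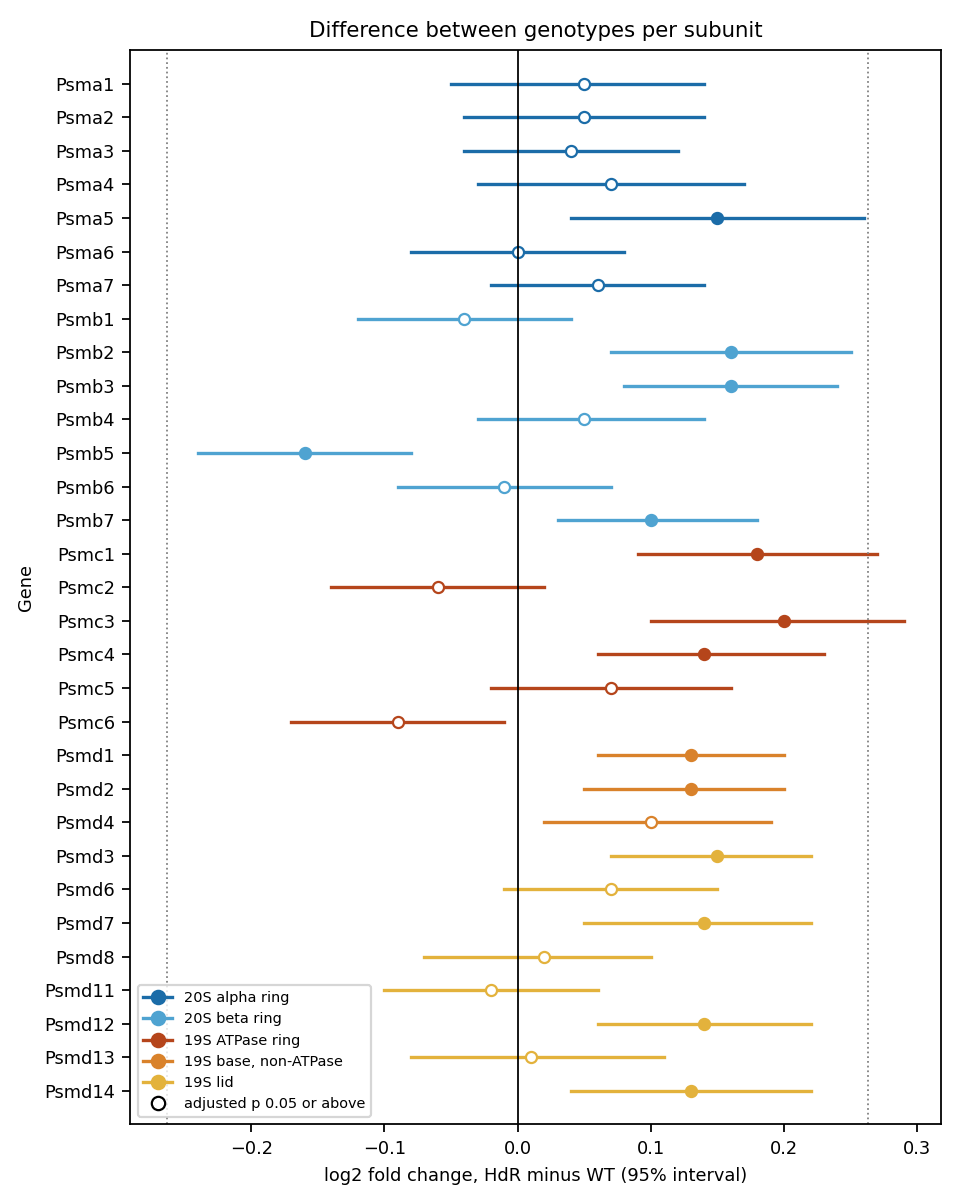
Log2 fold change (HdR minus WT) of each subunit gene with its 95% interval from limma; filled points passed at adjusted p under 0.05 and dotted lines mark a fold of 1.2 either way. The 13 filled points on the right lie between 0.10 and 0.20, Psmb5 is the filled point on the left at -0.16, and no point reaches a dotted line.

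The regulator was higher in HdR more often than the core. Of 17 regulator genes 9 were called higher (52.9%) and 0 lower (1 lower at an unadjusted p under 0.05 and 1 with limma-voom), with a median log2 fold change of 0.126. Of 14 core genes 4 were called higher (28.6%) and 1 lower (7.14%), with a median of 0.052. Over all genes tested 21.6% were called higher and 23.4% lower, so the core's share called higher was near the background. No test of the difference between core and regulator was made, because the members were chosen with earlier results of these data known. With WT 2 left out, the medians were 0.095 and 0.019 and the counts higher were 8 and 2. The core median was 0.033 without HdR 2 and 0.089 with upper-quartile scaling, where the regulator median was 0.113 and 0.163. The core count higher was also 2 without HdR 1 and 2 without WT 4 and HdR 4.

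The mean log2 deviation of each library from the WT mean gives the same contrast per library. For the core it was 0.013, -0.079, 0.070 and -0.003 in WT 1 to WT 4 and 0.064, 0.083, 0.008 and 0.036 in HdR 1 to HdR 4. The core groups overlapped, since WT 3 lay above 3 of 4 HdR libraries. For the regulator it was -0.002, -0.070, 0.064 and 0.007 in WT and 0.085, 0.102, 0.066 and 0.084 in HdR. Here all HdR libraries lay above all WT libraries, HdR 3 only just above WT 3. Regulator minus core was -0.015, 0.009, -0.005 and 0.011 in WT and 0.021, 0.019, 0.058 and 0.048 in HdR. This difference cancels the shared swing of WT 2 and WT 3, and all 4 HdR values were above all WT values, by 0.037 ± 0.019 on average (SD, n = 4). The separation was narrow: HdR 2 at 0.019 lay close to WT 4 at 0.011, beside a WT SD of 0.012. The core mean includes Psmb5 (log2 fold change -0.16), the only member called lower. Whether the groups stay separated without Psmb5 was not tested.

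**Figure D3:**
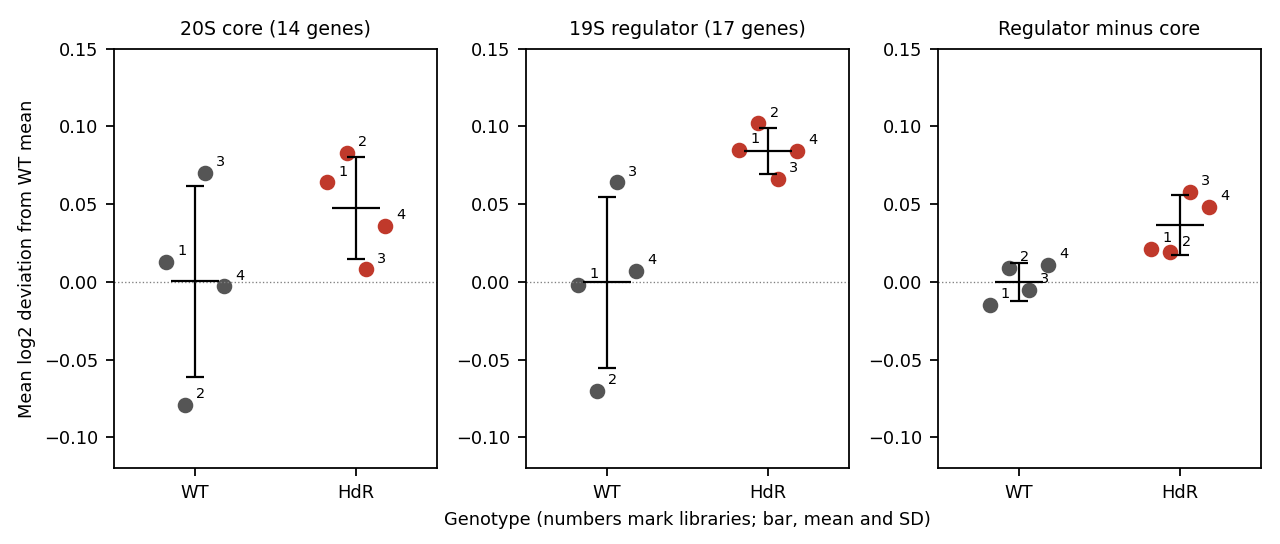
Mean log2 deviation from the WT mean for the 14 core genes, the 17 regulator genes and their difference, 1 numbered point per library, with the mean and SD of each genotype. WT 2 and WT 3 sit at the extremes of WT in both complexes, and in the difference the HdR points (0.019 to 0.058) lie above the WT points (-0.015 to 0.011).

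Between genes, levels are comparable only per length, so each level was divided by the length in kb of the gene's merged exons in GENCODE vM21. In WT, Psmb5 had the highest level per kb, 223.7 ± 10.3 per Mb per kb (SD, n = 4), followed by Psma6 at 145.1 and Psmb4 at 137.2, and Psmd11, a lid scaffold gene, had the lowest at 17.8. That is a 12.6-fold range among the subunit genes. The median was 60.6 in the core and 53.3 in the regulator in WT, and 65.6 and 59.0 in HdR, a ratio of 1.14 and 1.11. With the longest transcript as the length, the range fell to 5.94-fold, Psmb4 was highest at 226.3 and the ratios were 1.54 and 1.46. Psmd11 was lowest with either length.

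**Figure D4:**
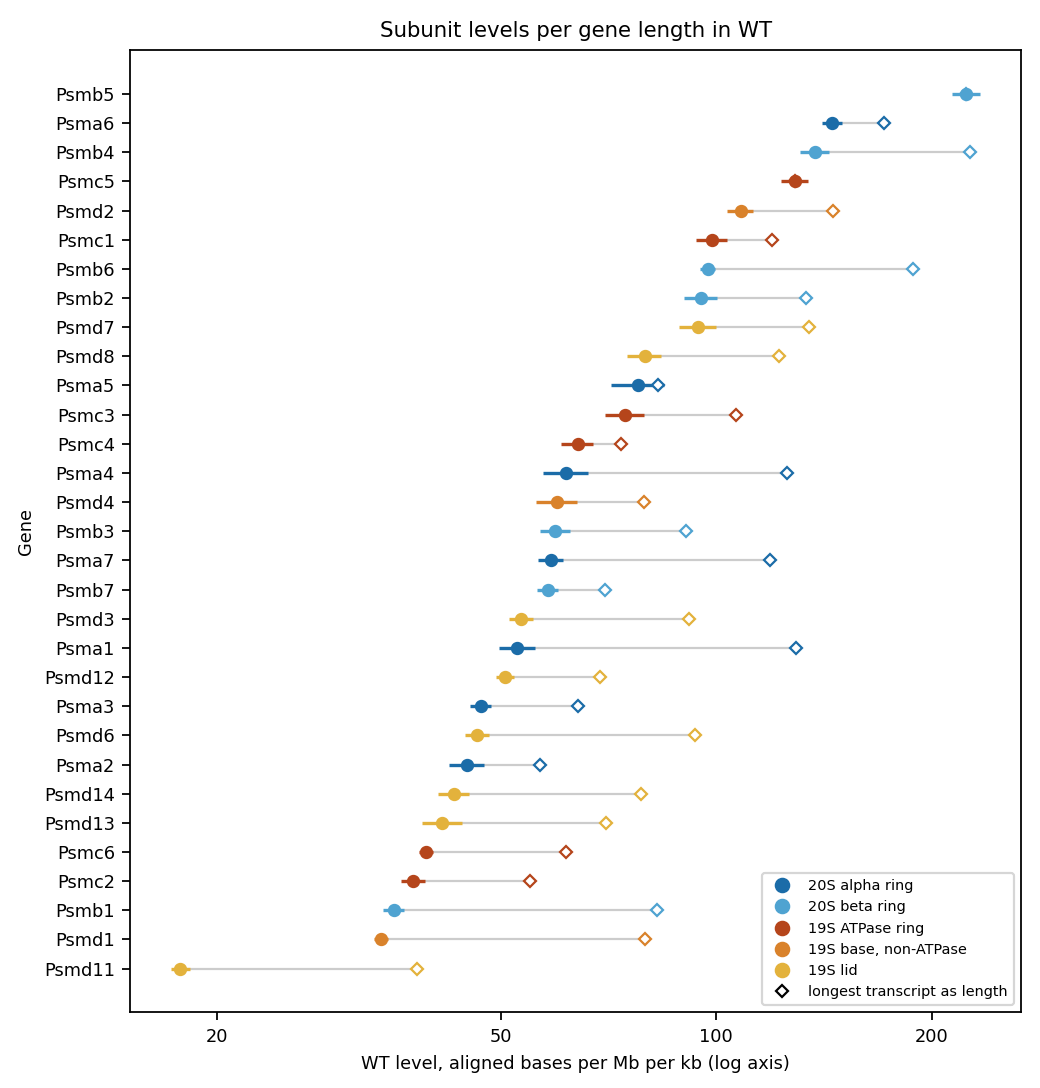
WT level of each subunit gene per kb of merged exons (filled points, mean with SD over 4 libraries) and per kb of the longest transcript (open diamonds), on a log axis. Psmb5 is at the top and Psmd11 at the bottom of the merged-exon order, and the gap between the symbols shows how far the length used moves a gene.

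Reads from near-identical copies could affect single genes. At 95% identity over at least 300 bases, 7 members (Psma3, Psma4, Psma5, Psmb5, Psmc1, Psmd1 and Psmd2) had a match to another annotated gene, mostly processed pseudogenes, and none of these other genes had a row in the table. How such reads were assigned is not given in the sources used here, so the levels of these 7 genes are uncertain in that respect.

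The immunoproteasome genes, which replace the catalytic subunits when induced by interferon or TNF, were all called higher. Of all genes tested, 21.6% were called higher. Psmb8, the beta5i gene that replaces Psmb5, was at 6.71, 5.25, 5.43 and 4.82 per Mb in WT and at 10.5, 9.77, 9.42 and 12.1 in HdR. Every HdR value was above every WT value (log2 fold change 0.81 ± 0.104, SE, limma adjusted p = 8.58e-06). Psmb9, the beta1i gene, was at 1.7, 2.55, 1.97 and 1.76 in WT and at 3.21, 2.76, 2.66 and 4.07 in HdR (0.47 ± 0.132, adjusted p = 0.00713). Psmb9 is close to the filter, and its change was 0.64 with a pseudocount of 0.1 and 0.22 with 5, and its call was lost without WT 4 and HdR 4. Psmb10, the beta2i gene, was at 16.0, 15.4, 18.5 and 15.5 in WT and at 21.6, 22.9, 23.7 and 18.3 in HdR, where HdR 4 lay inside the WT range (0.38 ± 0.082, adjusted p = 0.00116). Against a fold of 1.2, 1 of the 3 was called, Psmb8, where 7.46% of all genes tested were called in either direction.

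The immunoproteasome genes were minor beside their constitutive partners. Per kb of merged exons, Psmb8 made up 0.728% ± 0.0905 of Psmb8 plus Psmb5 in WT and 1.52% ± 0.168 in HdR (SD, n = 4). Psmb9 made up 0.558% ± 0.114 and 0.886% ± 0.163 of its pair with Psmb6, and Psmb10 14.1% ± 0.688 and 16.9% ± 1.61 of its pair with Psmb7. With the longest transcript as the length, the Psmb8 share was 1.28% and 2.66%. The testis gene Psma8 and the thymus gene Psmb11 did not exceed 0.0835 per Mb in any library.

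The lists of other proteasome and ubiquitin genes were described with the same fit. Of 53 tested genes in these lists 10 were called higher (18.9%) and 16 lower (30.2%), with a median of -0.001. Over all genes tested these shares were 21.6% and 23.4%, which is the background for each list below as well. Among alternative caps and the inhibitor, Psme1 and Psme2, which encode the interferon-inducible PA28 alpha and beta cap, were lower in every HdR library (59.5 ± 3.06 to 51.4 ± 1.21 and 77.3 ± 4.84 to 67.1 ± 2.76 per Mb, SD, n = 4, limma adjusted p = 0.00168 and 0.00312). Psme3, the nuclear PA28 gamma cap gene, rose from 201.7 ± 3.03 to 219.4 ± 3.99 (adjusted p = 0.0068), while Psme4 and Psmf1 did not pass. The PA28 alpha and beta genes and the immunoproteasome genes thus differed in opposite directions in these libraries.

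Of 8 assembly chaperone genes tested, 1 was called higher and 0 lower (limma; 2 and 0 at an unadjusted p under 0.05, 1 and 0 with limma-voom). Psmd9, a chaperone of the base, rose from 36.1 ± 2.32 to 43.5 ± 2.4 per Mb (SD, n = 4, limma adjusted p = 0.00134). Pomp, the maturation factor of the core, was at 0.11 (adjusted p = 0.0513) and made the count 2 with median-of-ratios or upper-quartile scaling, library totals, the stricter filter, or without WT 1 or WT 3. Of 15 associated receptors, deubiquitinases and cofactors, 2 were higher and 3 lower. The proteasome-bound deubiquitinase genes Usp14 and Uchl5 rose from 118.2 ± 1.13 to 133.2 ± 5.6 and from 59.1 ± 3.42 to 68.2 ± 1.98 (SD, n = 4, limma adjusted p = 0.00174 and 0.0024). Zfand5, which encodes a proteasome-activating zinc finger protein, fell from 183.6 ± 10.6 to 128.6 ± 6.03 (log2 fold change -0.51 ± 0.046, SE, limma adjusted p = 1.44e-07).

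The genes for NRF1, the known driver of the subunit genes, and for its relatives were mostly lower. Of 8 genes for these factors, their processing and partners, 0 were called higher and 6 lower, with a median of -0.275 (limma; 0 higher at an unadjusted p under 0.05 and with limma-voom, 1 without WT 4 and HdR 4). Nfe2l1 was at 427.6, 436.1, 437.5 and 409.8 per Mb in WT and at 316.2, 321.2, 300.6 and 414.4 in HdR. HdR 4, the shallowest library, lay inside the WT range and the other HdR libraries far below it. The log2 fold change was -0.35 ± 0.097 (SE, limma adjusted p = 0.0212), -0.45 (adjusted p = 1.25e-06) without HdR 4, and adjusted p was 0.0744, 0.0728 and 0.051 without WT 2, WT 3 or HdR 2. Nfe2l3 was at 18.2, 17.9, 21.0 and 14.5 in WT and at 8.56, 6.92, 6.56 and 9.4 in HdR (-1.10 ± 0.117, adjusted p = 3.7e-06). Ngly1, which encodes the deglycosylase that NRF1 needs for activity, fell by 0.32 and Mafk, a small MAF partner, by 0.45 on the log2 scale (adjusted p = 0.000798 and 5.93e-08), and Nfe2l2, the gene for NRF2, fell by 0.15 (adjusted p = 0.0012).

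Upstream of the proteasome, 2 of 6 ubiquitin and E1 genes were higher and 3 lower. Uba1, the main ubiquitin-activating enzyme gene, rose from 496.2 ± 17.1 to 583.4 ± 7.8 per Mb and Uba6, the other E1 gene, from 40.5 ± 2.8 to 45.5 ± 1.78 (SD, n = 4, limma adjusted p = 2.99e-05 and 0.0218). The ubiquitin genes Ubb and Rps27a fell by 0.12 and 0.14 on the log2 scale (limma adjusted p = 0.0107 and 0.0112). With the upper-quartile alternative 0 of the 6 were called lower. The higher count was 1 without WT 3, without HdR 4 and without WT 4 and HdR 4. Of 8 genes for the p97 unfoldase and its cofactors, 1 was higher (Nploc4, 0.12 ± 0.037, adjusted p = 0.0132) and 2 lower (Faf1, -0.21 ± 0.041, and Ubxn1, -0.14 ± 0.043, SE). The higher count in this list ran from 0 without HdR 2 to 4 with upper-quartile scaling, and the lower count was 1 with that scaling.

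**Figure D5:**
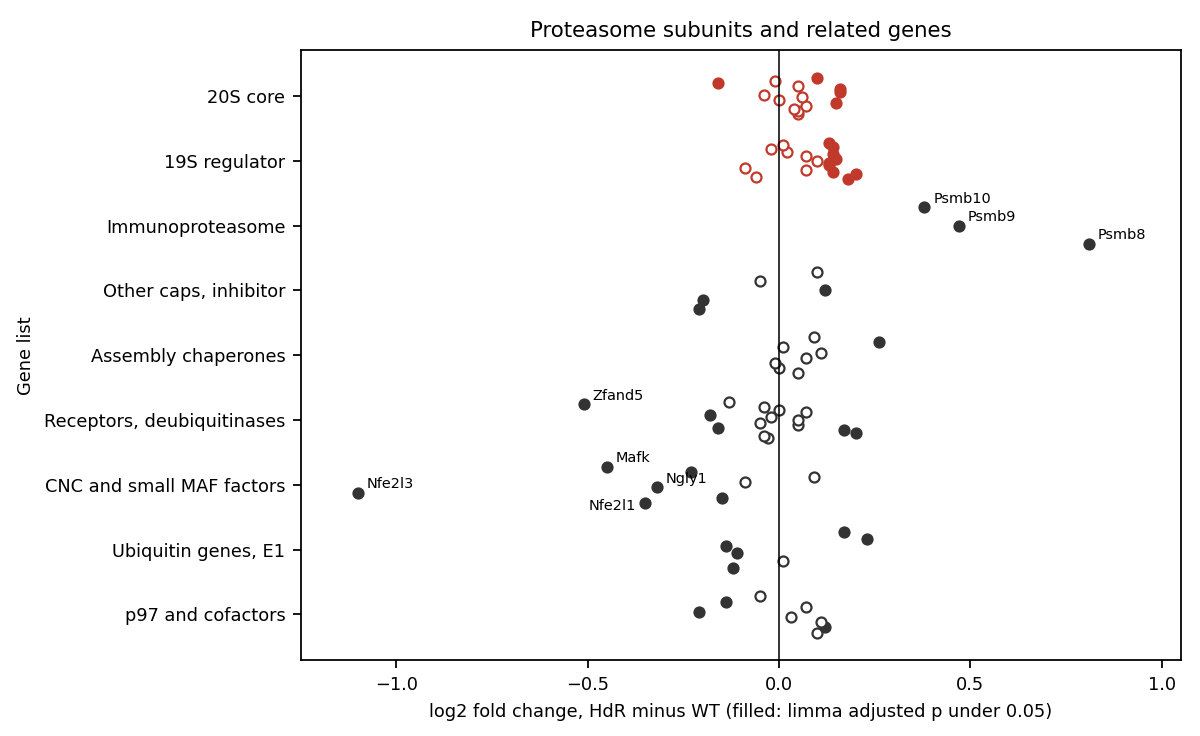
Log2 fold change (HdR minus WT) of each tested gene by list, with the constitutive subunits in red; filled points passed limma's test at adjusted p under 0.05. The subunits stay between -0.16 and 0.20, Psmb8 is at 0.81, and Zfand5, Mafk, Nfe2l1 and Nfe2l3 lie at -0.51, -0.45, -0.35 and -1.10.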

How the data were processed

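The authors deposited 1 table, with genes by symbol as its rows and the 8 libraries as its columns. Its values were read from the file as signal (coverage): whole-number sums of aligned bases per gene, not scaled for depth or length, whose commonest non-zero values in the deposited file are 302, 604 and 906. The build was GRCm38, per the labels; the aligner, counting tool, annotation and strand setting are not given in the sources used here. Coverage is not a count of molecules, so the main fit used no count model and no interval or floor based on counts. The intervals given came from limma on the log2 scale, and low values were filtered on the mean scaled level. The limma-voom fit was used only as an alternative.

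Libraries were scaled with trimmed-mean factors (30% of log ratios and 5% of mean levels trimmed at each end) to aligned bases per Mb. Genes with a mean of at least 1 were fitted with limma 3.58.1 in R 4.3.3 (log2 of the level plus 1, trend and robust variance with statmod 1.5.0, genotype the only factor, two-sided, Benjamini-Hochberg over 11870 genes, called under 0.05). The calculation was also run on simulated data with planted changes larger than those of the members. That run does not bear on calls of the members' size. Alternatives changed scaling, filter, pseudocount, variance model, block, fold threshold and libraries; GC and length correction was added after seeing the data. Copies were searched with BLAST 2.17.0 and figures drawn with matplotlib 3.10.9.

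Members and lists were chosen with earlier results of these data known. Values in every library were given for the 2 members with the smallest p in each part of the complex, the catalytic subunits and the members with the highest and lowest change; from each other list up to 4 genes with the smallest p could be named, with Nfe2l1 and Rbck1. The values of 1 gene under this rule are not reported here.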

Additional observations from a re-analysis of the deposited data

Results flagged for a closer look

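In 120 groups of 4 libraries checked (the members and the other genes under the naming rule, in each genotype), 6 had 1 library set apart from the other 3 by a gap above Dixon's 95% critical value for the share of the range; chance gives about 1 in 20 groups. Psmb7 was at 217.9 per Mb in HdR 1 against 211.2 to 212.3 in the other HdR libraries, and Psmc5 at 175.9 in HdR 3 against 191.3 to 193.4. Psme1 was at 64.1 in WT 3 against 57.5 to 58.5, Psmg4, an assembly chaperone gene, at 9.78 in WT 3 against 8.45 to 8.65, and Psmf1 at 38.2 in WT 2 against 33.6 to 34.2. Uchl5 was at 54.0 in WT 2 against 60.7 to 61.1.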

How the results depend on the processing

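Of the 14 members called, 10 kept their call under all alternatives except the test against a fold of 1.2, under which 0 core and 0 regulator genes were called higher or lower and the other lists had 1 gene higher and 3 lower. Members called lower were 2 with limma-voom and with GC and length correction, the additional gene being in the regulator (1 lower), and 1 to 2 when each library was left out in turn (regulator 0 to 1). The number of core genes called higher was 2 to 4 when each library was left out and 2 without WT 4 and HdR 4. With the longest transcript as the length, the highest-to-lowest ratio was 5.94 and core over regulator 1.54 in WT and 1.46 in HdR. Members near 0 changed sign: Psma6 to 0.0 with median-of-ratios, 0.033 with upper-quartile, 0.02 with totals-only scaling, 0.004 with GC and length correction, 0.002 without WT 4 and HdR 4, and -0.023 to 0.013 when single libraries were left out; Psmb6 to 0.028, 0.015 and 0.007 with the upper-quartile, totals-only and GC alternatives and -0.025 to 0.02 without single libraries; Psmd11 to 0.019 and 0.006 with upper-quartile and totals-only scaling; Psmd8 to -0.021 without WT 2 (-0.021 to 0.041 without single libraries); Psmd13 to -0.031 without WT 2 and -0.001 without HdR 1 (-0.031 to 0.04). The cause of these shifts was not tested. No scaling moved the median of all genes by more than 0.1; with upper-quartile scaling it was 0.027, and 57.7% of all calls were higher against 48.1%. The replicate numbers were not shown to pair the libraries: deviations of same-numbered libraries correlated at -0.22 to 0.028 and none was closest to its own number. With the replicate number as a block, 12 members were called higher and 1 lower.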
